A study of Mus musculus with 7 samples.

Results

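Collagens are the main structural proteins of the extracellular matrix around muscle fibres. Each collagen molecule is built from chains that wind around one another, and every chain carries long runs of the Gly-X-Y motif, in which glycine recurs at a fixed spacing. Fibrillar collagens form the banded fibrils of the endomysium, perimysium and tendon, FACIT collagens sit on the surface of those fibrils, microfibrillar type VI collagen forms beaded filaments beside the basement membrane, and type IV collagen forms the sheet-like network of the basement membrane itself. In skeletal muscle, fibroblasts are the main source of the fibrillar and type VI chains.

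The collagen chain genes were taken as all genes on the array whose symbol is Col, a number, a and a number. There were 44 such genes of 31131 genes on the array, and they were represented by 66 probes. RNA was from the quadriceps of C57BL/6 mice that were 3 months old, and it was hybridised to 7 single-dye Agilent arrays, 1 mouse per array, of which 4 were WT and 3 were AR113Q. AR113Q mice are knock-in mice, in which the endogenous androgen receptor gene carries human sequence with an expanded CAG repeat, as in spinal and bulbar muscular atrophy (SBMA), and the study describes this age as before the onset of motor dysfunction. The labels name the controls WT, whereas the results text of the study describes controls with a humanized receptor gene of normal repeat length, so the exact control genotype is not settled here. The comparison asks whether transcripts of the muscle differ before the motor phenotype appears.

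The Gly-X-Y repeat is visible in the array itself. Of the 66 collagen probes, 2 spell a glycine codon at every possible position of the repeat over their 60 bases. One of them, the Col15a1 probe at chr4:47283786-47283845 of mm9 (plus strand), measured a gene whose values are given further on. It is shown to let the repeat be seen, with its 6 glycine codons in capitals, each 9 bases after the last.
Col15a1 probe: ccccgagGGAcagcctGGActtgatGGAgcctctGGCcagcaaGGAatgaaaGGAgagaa

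Arrays correlated across genes at 0.984 to 0.988 within WT, at 0.970 to 0.982 within AR113Q and at 0.911 to 0.944 between the genotypes, and genes are not independent replicates. Between 18757 and 22013 probes per array were well above background, with the lowest number on AR113Q array 1, and no spot was saturated. All 10 skeletal muscle markers, among them Ckm, Acta1 and Myh4, were above background on all 7 arrays, and none was called in either direction. Ckm had a log2 fold change of -0.80 (limma, adjusted p = 0.0102), too small a difference for a call. All AR113Q arrays of Ckm were below all WT arrays, whereas Des had 0.41 and overlapped. Only 1 of the 5 slides, slide 2, held both genotypes (WT 2 and AR113Q 1), so differences within a slide rest on 1 array of each genotype.

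Most of the collagen chains that could be tested were lower in AR113Q muscle. A gene was tested where 3 or more of the 7 arrays had a probe of it clearly over background, which 30 of the 44 genes met. It was called lower if the adjusted p (limma, Benjamini-Hochberg over 16574 genes) was at most 0.05 and the log2 fold change was at most -1. By this rule 18 of the 30 collagen genes were called lower, against 13.1% of all genes tested, and 0 were called higher, against 11.2% of all genes tested. At an unadjusted p under 0.05, 1 collagen gene was higher, Col11a2, and 22 were lower, against 24.9% and 26.6% of all genes tested. A further 2 genes had an adjusted p at most 0.05 with a smaller difference. The median log2 fold change was -1.48 over the 30 genes and -0.01 over all genes tested, and 25 of the 30 values were negative. In 20 of the 30 genes all AR113Q arrays lay below all WT arrays, as they did in 25.1% of all genes tested. Bulk RNA cannot tell fewer cells of a type from less RNA per cell.

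The filter lets in genes through the genotype in which they are brighter. Of the 30 genes, 17 were above background on all 7 arrays, and 11 of these 17 were called lower, against 11.4% of all genes above background on all 7 arrays. Another 2 of the genes called lower, Col5a2 and Col15a1, did not pass the background on any of the AR113Q arrays, so that their differences are lower bounds. On slide 2, 29 of the 30 tested collagen genes were lower on the AR113Q array than on the WT array, as were 51.8% of all genes tested, and over the 18 called genes the difference in log2 signal ran from -5.34 to -0.93. These 2 arrays were also part of the comparison that made the calls, so this does not set the called genes apart. The number of calls depended on the processing. Of the 30 genes, 10 were called lower when the background was corrected by normexp, against 5.70% of all genes, and 10 of 28 in the authors' own normalized values, against 4.98% of all genes. The same 10 genes passed in both, namely Col1a1, Col1a2, Col3a1, Col5a1, Col5a3, Col6a1, Col6a2, Col6a3, Col14a1 and Col16a1. None of the 18, Col4a5 and Col6a6 included, was called with slide as a fixed effect, a fit in which no gene of all tested passed. That fit had 5 slides for 7 arrays and slide 2 alone estimated the difference, so it had little power to make calls. Its median log2 fold changes were -3.19 for fibrillar, -4.18 for microfibrillar, -1.59 for FACIT and -0.72 for basement membrane genes.

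**Figure D1:**
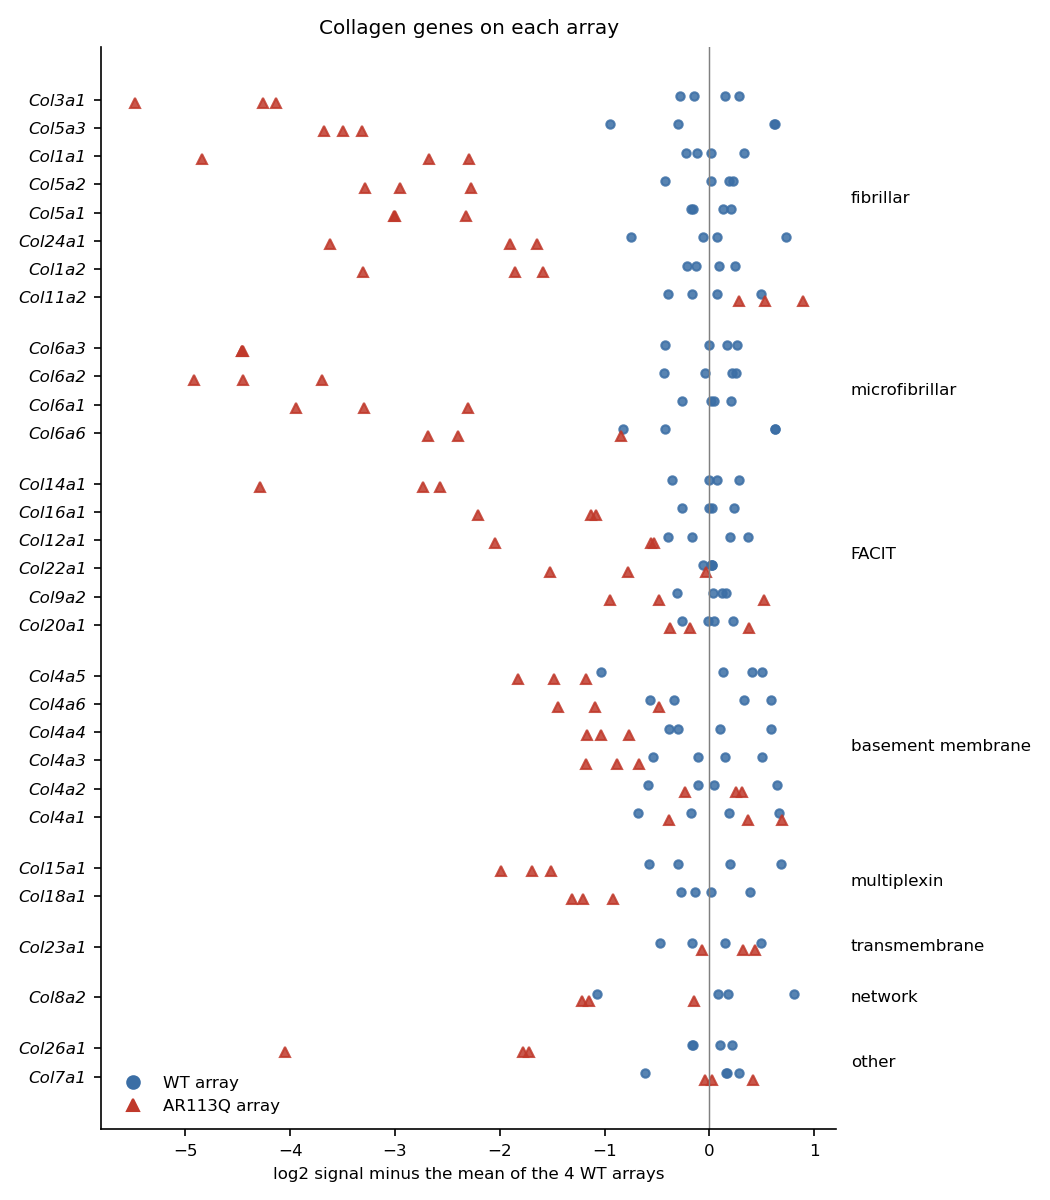
Log2 signal of the 30 tested collagen genes on each array, as the difference from the mean of the 4 WT arrays (x axis), with genes grouped by collagen class (y axis). Circles are WT arrays and triangles AR113Q arrays. The fibrillar and microfibrillar genes other than Col11a2 and Col6a6 have their AR113Q arrays at differences from -5.48 to -1.59, whereas the arrays of Col4a1 and Col4a2 overlap.

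**Figure D2:**
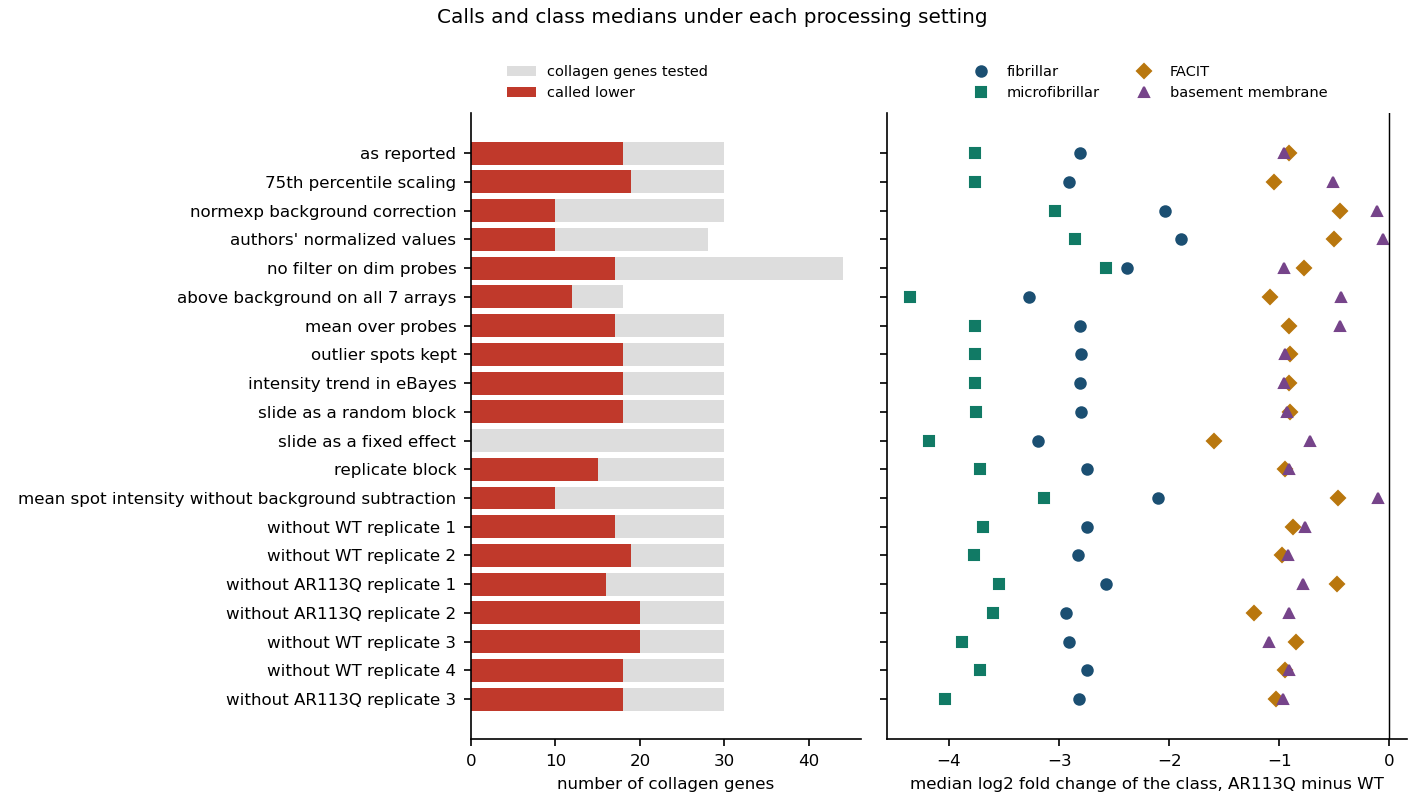
Number of collagen genes tested (grey) and called lower (red) under each processing setting (left, x axis), and the median log2 fold change of the 4 main classes under the same settings (right, x axis), 1 setting per row. The number called is 18 as reported and 10 with normexp, in the authors' values and on the mean spot intensity, and it is 0 with slide as a fixed effect; the medians of all 4 classes stay below 0 throughout.

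Fibrillar collagens. Of 11 fibrillar genes, 8 were tested and 7 of them were called lower, with a median log2 fold change of -2.81, or -2.58 with Col5a2 at its bound. Type III collagen, which forms fine fibrils in compliant tissue, had the lowest log2 fold change of the collagens over all 7 arrays. Col3a1 (probe at chr1:45405589-45405648, mm9) had log2 signals of 13.96, 13.66, 13.52 and 14.09 on the WT arrays and of 8.32, 9.55 and 9.67 on the AR113Q arrays. Every AR113Q array was lower than every WT array, and the lowest was AR113Q 1. The log2 fold change was -4.62 ± 0.33 (SE, n = 4 and 3; limma, adjusted p = 0.000108), which is 24.7-fold lower, and it ranked 14 from the lowest among the 16574 genes. Without AR113Q 1 it was -4.20, and the order changed, since Col6a3 was then at -4.46 and Col6a2 at -4.31.

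The chains Col1a1 and Col1a2 assemble together into type I collagen, the main fibril protein of tendon, bone and muscle connective tissue. Col1a1 (chr11:94813115-94813174) had log2 signals of 12.37, 12.05, 11.81 and 11.92 in WT and of 7.20, 9.36 and 9.74 in AR113Q. Col1a2 (chr6:4490619-4490678) had log2 signals of 15.08, 14.86, 14.78 and 15.23 in WT and of 11.68, 13.14 and 13.40 in AR113Q. In both genes AR113Q 1 stood apart as the lowest array, and no AR113Q array reached the WT range. The log2 fold change was -3.27 ± 0.55 for Col1a1 (SE, n = 4 and 3; limma, adjusted p = 0.00232) and -2.25 ± 0.39 for Col1a2 (SE; limma, adjusted p = 0.00258). Without AR113Q 1, the log2 fold change of Col1a1 was -2.49 and it was still called.

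Type V chains are incorporated into type I fibrils and control their diameter. Col5a3 had log2 signals of 11.62, 10.71, 10.06 and 11.63 in WT and of 7.51, 7.33 and 7.69 in AR113Q, a log2 fold change of -3.50 ± 0.38 (SE; limma, adjusted p = 0.000427). Col5a1 had log2 signals of 10.11, 9.82, 9.81 and 10.19 in WT and of 6.97, 6.98 and 7.66 in AR113Q, a log2 fold change of -2.78 ± 0.22 (SE; limma, adjusted p = 0.00013). The spread of Col5a3 was wider among WT than among AR113Q mice, with SDs of 0.76 and 0.18, and the groups did not overlap in either gene. Col5a2 had log2 signals of 5.29, 5.07, 4.63 and 5.24 in WT and of 2.11, 2.79 and 1.77 in AR113Q. Its probe was clearly over background on 0 of the 3 AR113Q arrays, so it was at least 2.71-fold higher in WT (limma, adjusted p = 0.000261 for the measured means of 5.06 and 2.22). The bound is from the background-subtracted signal. The log2 fold change was -0.44 with normexp, -0.22 in the authors' values and -0.40 on the mean spot intensity, and it was not called in any of these. This bound sets the mean WT signal against the lowest signal that was clearly over background on each AR113Q array, or the probe's own signal where that was higher.

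Col24a1, a fibrillar chain of low abundance, had a log2 fold change of -2.39 ± 0.51 (SE; limma, adjusted p = 0.00679) and was above background on 2 of the 3 AR113Q arrays. Without AR113Q 1 it was -1.77, still called, and it was not called with normexp (-0.43) or in the authors' values (-0.24). The fibrillar gene that did not fall was Col11a2, a chain of the type XI collagen of cartilage, with a log2 fold change of 0.57 (95% interval 0.00068 to 1.14; limma, adjusted p = 0.0966). The other fibrillar genes, Col2a1, Col11a1 and Col27a1, did not pass the filter, and Col27a1 alone of them was above background on any array, on 2.

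Microfibrillar collagens. Of 6 type VI genes, 4 were tested and all 4 were called lower, with a median log2 fold change of -3.77. Col6a1, Col6a2 and Col6a3 encode the chains of type VI collagen, and mutations in each of them cause Bethlem and Ullrich muscle disease. Col6a3 (chr1:92663663-92663722) had log2 signals of 12.05, 12.22, 11.63 and 12.32 in WT and of 7.60, 7.59 and 7.60 in AR113Q. The AR113Q mice were nearly identical, with an SD of 0.0069 against 0.30 in WT, and the log2 fold change was -4.46 ± 0.19 (SE, n = 4 and 3; limma, adjusted p = 1.91e-05), which is the lowest adjusted p among the collagens.

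Col6a2 (chr10:76058931-76058990) had log2 signals of 10.72, 10.42, 10.04 and 10.68 in WT and of 6.02, 5.55 and 6.77 in AR113Q. Col6a1 (chr10:76171538-76171597) had log2 signals of 12.90, 12.70, 12.43 and 12.74 in WT and of 8.75, 9.40 and 10.39 in AR113Q. The lowest array was AR113Q 2 for Col6a2 and AR113Q 1 for Col6a1, and no AR113Q array overlapped WT in either gene. The log2 fold changes were -4.35 ± 0.30 for Col6a2 (SE; limma, adjusted p = 9.51e-05) and -3.18 ± 0.35 for Col6a1 (SE; limma, adjusted p = 0.000436). Col6a6, a further type VI chain, had a log2 fold change of -1.98 ± 0.52 (limma, adjusted p = 0.0172). Its probe was above background on 2 WT arrays and 1 AR113Q array, and the call was lost, among other settings, with normexp (-0.28), on the mean spot intensity (-0.27), with no filter (adjusted p = 0.0507) and without AR113Q 1 (-1.77, adjusted p = 0.0654) or AR113Q 3 (-1.62, adjusted p = 0.0549). Col6a4 and Col6a5 were above background on no array.

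**Figure D3:**
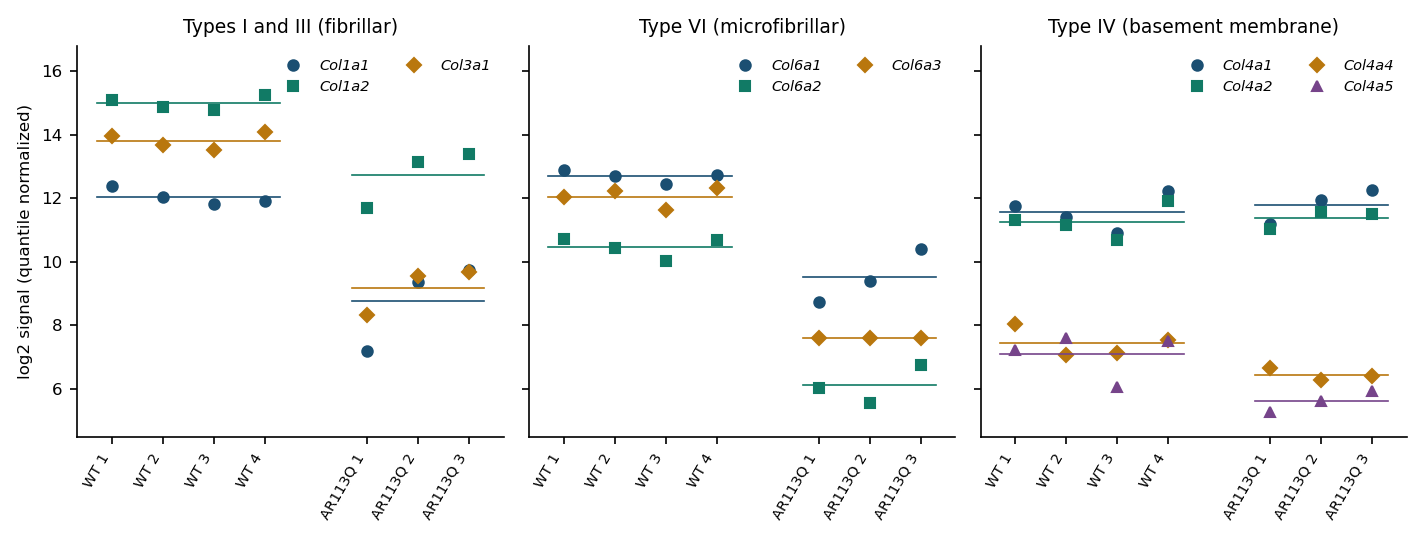
Log2 quantile normalized signal (y axis) on each of the 7 arrays (x axis) for chains of types I and III, VI and IV. Points are arrays and horizontal lines are the mean of each genotype; levels of different probes are not comparable. The chains of types I, III and VI are lower on all 3 AR113Q arrays, Col4a4 and Col4a5 are lower by less, and Col4a1 and Col4a2 overlap between the genotypes.

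Basement membrane collagens. All 6 type IV genes were tested, and 2 were called lower, with a median log2 fold change of -0.95. This median was -0.45 with probes averaged, -0.11 with normexp and -0.06 in the authors' values, and neither call was made in the last 2 of these. Col4a1 and Col4a2, which pair in the type IV network found in every basement membrane, did not differ between the genotypes beyond their spread. Col4a1 (chr8:11199009-11199068) had log2 signals of 11.76, 11.40, 10.89 and 12.24 in WT and of 11.19, 11.94 and 12.27 in AR113Q. Col4a2 (chr8:11448840-11448899) had log2 signals of 11.31, 11.15, 10.68 and 11.91 in WT and of 11.03, 11.57 and 11.52 in AR113Q. The arrays of the genotypes overlapped in both genes, and WT 3 was the lowest of all 7 in both. The differences were 0.22 (95% interval -0.60 to 1.05) for Col4a1 and 0.11 (95% interval -0.56 to 0.78) for Col4a2 on the log2 scale, with adjusted p = 0.642 and 0.786 by limma. These intervals do not reach the values of any chain of types I, III or VI given above, and the difference between classes was not tested.

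The chains Col4a3 to Col4a6 belong to the other type IV networks, known mainly from kidney, lung and smooth muscle. Col4a5 had log2 signals of 7.24, 7.61, 6.07 and 7.51 in WT and of 5.28, 5.63 and 5.93 in AR113Q, without overlap. Its log2 fold change was -1.49 ± 0.37 (SE; limma, adjusted p = 0.0133), and the call was lost, among other settings, with normexp (-0.70), in the authors' values (-0.49), on the mean spot intensity (-0.73) and without AR113Q 1 (-1.33, adjusted p = 0.0518). Col4a4 had log2 signals of 8.04, 7.06, 7.15 and 7.55 in WT and of 6.68, 6.28 and 6.41 in AR113Q. Its arrays did not overlap, but the log2 fold change of -0.99 ± 0.26 (SE; limma, adjusted p = 0.0152) fell short of the threshold of size, as did that of Col4a3 (-0.91, adjusted p = 0.0225). Both lay close to that threshold and were called with 75th percentile scaling (-1.13 for Col4a4 and -1.22 for Col4a3) and without WT 3 (-1.09 in both). Col4a4 was also called with slide as a random block (-1.005) and without WT 2 (-1.12) or AR113Q 1 (-1.10), and Col4a3 without AR113Q 3 (-1.03).

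Col4a6 had log2 signals of 5.75, 5.49, 4.59 and 4.82 in WT and of 3.72, 4.68 and 4.07 in AR113Q, and AR113Q 2 lay within the WT range. It was called with a log2 fold change of -1.01 ± 0.34 (SE; limma, adjusted p = 0.0421), but its second probe had a log2 fold change of 0.37. The call was also lost when WT 1, WT 2, AR113Q 1 or AR113Q 3 was left out, with log2 fold changes of -0.81, -0.90, -0.79 and -0.96. For Col4a4 the second probe had a log2 fold change of -0.18, so that both of these chains were uncertain.

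FACIT collagens. Of 9 genes, 6 were tested and 2 were called lower, with a median log2 fold change of -0.91. Col14a1 encodes a fibril-associated chain of interstitial matrix. It had log2 signals of 8.68, 8.32, 8.76 and 8.96 in WT and of 4.40, 6.11 and 5.95 in AR113Q, a log2 fold change of -3.20 ± 0.40 (SE; limma, adjusted p = 0.000703). No AR113Q array reached the WT range. Its probe was above background on 2 of the 3 AR113Q arrays, and the log2 fold change was -1.80 with normexp, still called. A second Col14a1 probe, above background on all 7 arrays, had a smaller log2 fold change of -1.39, and the authors' values gave -1.39 as well.

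Col16a1, a further fibril-associated chain, had log2 signals of 9.58, 9.30, 9.55 and 9.80 in WT and of 7.35, 8.43 and 8.47 in AR113Q, a log2 fold change of -1.47 ± 0.29 (SE; limma, adjusted p = 0.00461). Its second probe was lower by a like amount, -1.60. Col12a1, whose product binds type I fibrils in tendon and fascia, had log2 signals of 5.92, 5.33, 6.10 and 5.55 in WT and of 3.68, 5.20 and 5.16 in AR113Q. All AR113Q arrays were below WT, but AR113Q 1 was far lower than the other two, and the log2 fold change of -1.04 ± 0.39 (SE; limma, adjusted p = 0.0584) was not called. It was -0.55 without AR113Q 1, and it was called without AR113Q 2 (-1.30, adjusted p = 0.0491) or AR113Q 3 (-1.29, adjusted p = 0.0447). The median of the class was -0.47 without AR113Q 1.

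Col22a1 marks the junction of muscle and tendon, and its log2 fold change was -0.78 (limma, adjusted p = 0.0749). It was -0.40 without AR113Q 1, and it was called without AR113Q 2 (-1.15, adjusted p = 0.00896). WT arrays lay within an SD of 0.041, whereas AR113Q arrays had log2 signals of 7.84, 9.33 and 8.59. Col9a2 and Col20a1 had log2 fold changes of -0.30 and -0.06 (95% intervals -1.05 to 0.45 and -0.56 to 0.44). Col9a1, Col9a3 and Col19a1 did not pass the filter.

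Other classes. The multiplexins Col15a1 and Col18a1 encode basement membrane zone proteins, and the C-terminal fragment of the latter is endostatin. Both were called lower. Col15a1, whose probe is printed above, had log2 signals of 4.98, 4.20, 4.47 and 5.46 in WT and of 3.27, 3.08 and 2.79 in AR113Q, none of them well above background, so that it was at least 2.23-fold higher in WT (limma, adjusted p = 0.00279 for the measured means of 4.78 and 3.05) in the background-subtracted signal. The log2 fold change was -0.28 with normexp, -0.14 in the authors' values and -0.23 on the mean spot intensity, and it was not called in any of these. Col18a1 had log2 signals of 8.49, 9.01, 8.35 and 8.64 in WT and of 7.31, 7.42 and 7.70 in AR113Q. The groups did not overlap, the log2 fold change was -1.15 ± 0.20 (SE; limma, adjusted p = 0.0027), and its second probe had -1.17. The call was lost with normexp (-0.79), in the authors' values (-0.69) and on the mean spot intensity (-0.84), where the difference fell short of the threshold of size.

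Col26a1 had log2 signals of 5.61, 5.99, 5.87 and 5.60 in WT and of 1.72, 3.99 and 4.05 in AR113Q, a log2 fold change of -2.51 ± 0.53 (SE; limma, adjusted p = 0.0062), and was above background on 2 AR113Q arrays. Without AR113Q 1 it was -1.75, still called, and it was not called with normexp (-0.60) or in the authors' values (-0.32). Col7a1, the anchoring fibril chain of skin, had log2 signals of 10.76, 10.75, 9.98 and 10.88 in WT and of 10.55, 11.00 and 10.62 in AR113Q. These overlapped, with a difference of 0.13 (95% interval -0.44 to 0.70).

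Col8a2, a chain of the type VIII network, had log2 signals of 6.00, 4.84, 6.72 and 6.10 in WT and of 4.70, 4.77 and 5.77 in AR113Q, a difference of -0.84 (95% interval -1.86 to 0.19). Col23a1, a transmembrane collagen, had log2 signals of 4.53, 5.18, 4.22 and 4.84 in WT and of 5.13, 4.62 and 5.01 in AR113Q, a difference of 0.23 (95% interval -0.35 to 0.80). The genotypes overlapped in both genes, and neither was called, although Col8a2 was called without WT 2 (-1.19, adjusted p = 0.0327). Among the 14 genes that did not pass the filter, 9 were above background on no array (Col2a1, Col6a4, Col6a5, Col8a1, Col9a3, Col10a1, Col11a1, Col17a1 and Col28a1) and 5 on 1 or 2 arrays (Col9a1, Col13a1, Col19a1, Col25a1 and Col27a1).

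**Figure D4:**
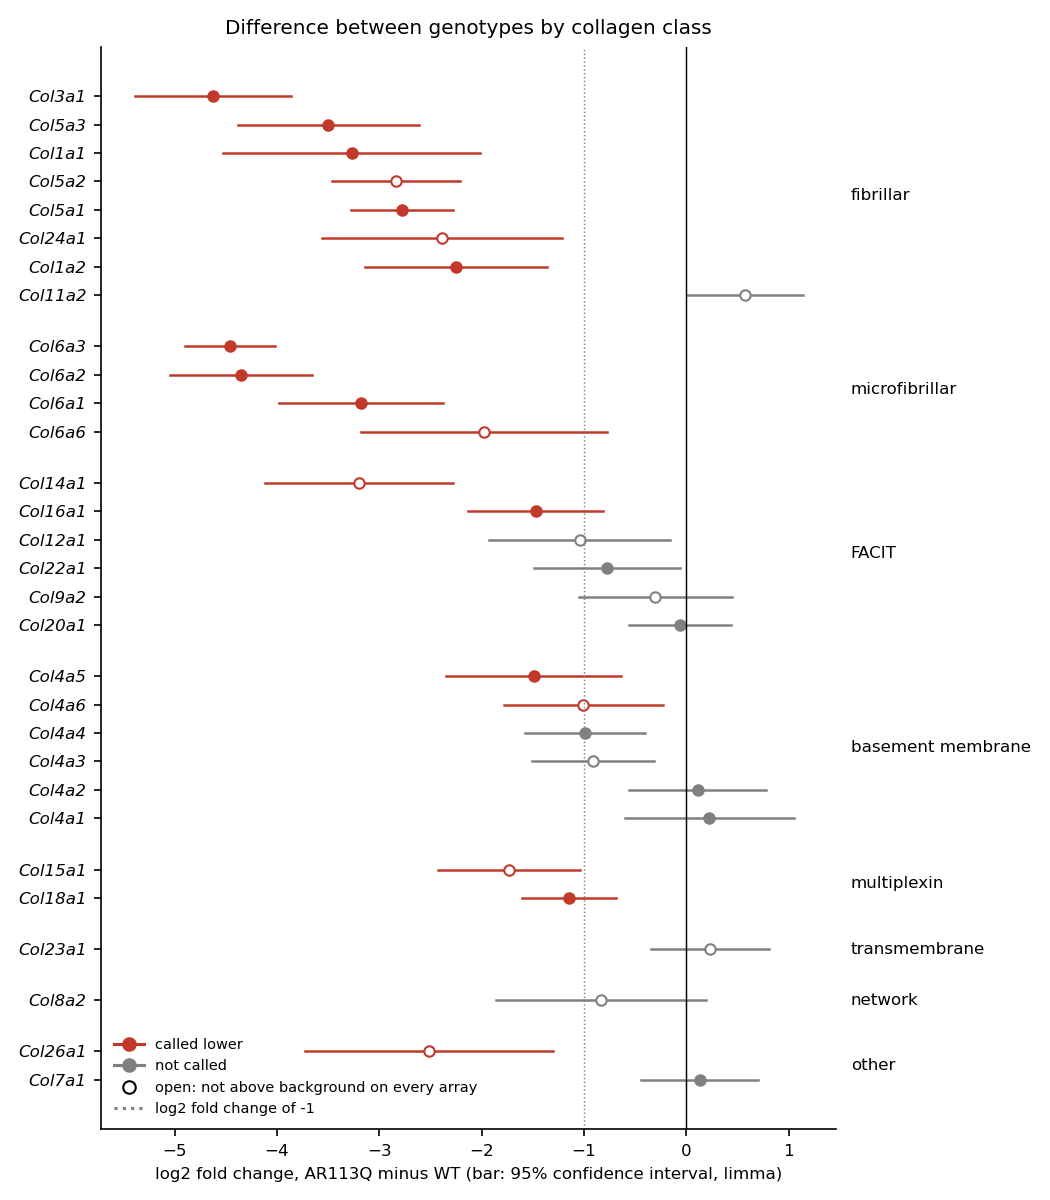
Log2 fold change of each tested collagen gene, AR113Q minus WT (x axis), with its 95% confidence interval from limma, by class (y axis). Red marks genes called lower, grey those not called, and open circles genes not above background on every array. All type VI genes and 7 of 8 fibrillar genes are called, with 2 of 6 type IV genes.

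The AR113Q mice also differed among themselves. AR113Q 1 was the lowest of the 3 in 21 of the 30 genes and in 12 of the 18 genes called lower. Over the fibrillar genes, the median difference from the WT mean was -3.40 in AR113Q 1, -2.48 in AR113Q 2 and -2.31 in AR113Q 3, and over the type VI genes it was -4.20, -3.88 and -3.19. Over the type IV genes it was -0.97, -0.68 and -0.86, and in WT the same median ran from -0.58 to 0.35. All 3 AR113Q mice thus lay below all 4 WT mice in the medians of these classes. AR113Q 1 also had the fewest probes above background, and the part of this in its values was not tested.

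Promoter windows in RefSeq (GRCm38.p6, 250 bases before to 50 bases after the start) were found for 35 of the 44 genes. Col4a1 and Col4a2 lie head to head on opposite strands, with starts 21 bases apart and 5′ ends that overlap, and their windows share 78 bases. Neither of these chains was called. The windows of Col1a2 and Col3a1, which fell, and of Col4a2 are printed on the plus strand, with capitals for matches on either strand. The motifs searched were the CCAAT box, the TATA box as TATAAA, the Sp1 site as GGGCGG, the AP-1 site as TGANTCA and the half-site of the androgen receptor as AGAACA, and none of these overlap in the windows shown.
Col1a2 (chr6:4505368-4505667): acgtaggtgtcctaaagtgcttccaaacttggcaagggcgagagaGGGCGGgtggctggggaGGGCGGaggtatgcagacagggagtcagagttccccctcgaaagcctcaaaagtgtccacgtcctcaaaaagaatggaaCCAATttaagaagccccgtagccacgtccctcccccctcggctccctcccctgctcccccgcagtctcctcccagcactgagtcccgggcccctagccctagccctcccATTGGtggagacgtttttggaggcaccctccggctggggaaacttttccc
Col3a1 (chr1:45311288-45311587): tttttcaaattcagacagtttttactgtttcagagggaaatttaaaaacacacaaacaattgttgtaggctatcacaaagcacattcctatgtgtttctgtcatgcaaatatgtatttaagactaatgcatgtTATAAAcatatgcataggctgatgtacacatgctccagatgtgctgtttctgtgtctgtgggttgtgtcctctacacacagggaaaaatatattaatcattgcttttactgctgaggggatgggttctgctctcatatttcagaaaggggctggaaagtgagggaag
Col4a2 (chr8:11312555-11312854): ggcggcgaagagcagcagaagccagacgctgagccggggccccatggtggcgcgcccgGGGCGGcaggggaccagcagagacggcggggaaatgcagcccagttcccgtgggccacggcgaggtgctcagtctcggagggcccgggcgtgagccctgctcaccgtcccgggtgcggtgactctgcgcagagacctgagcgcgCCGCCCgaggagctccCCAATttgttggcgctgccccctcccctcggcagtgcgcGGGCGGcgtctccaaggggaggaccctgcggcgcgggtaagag

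Col1a2 held 2 CCAAT and 2 GGGCGG matches, Col3a1 held 1 TATAAA match, and Col4a2 held 1 CCAAT and 3 GGGCGG matches. The 35 collagen genes had 38 windows, and a gene was counted once if any of its windows held the motif. These counts of genes stand beside shares of windows, which are unlike units. CCAAT was held by 13 of the 35 genes and was in 37.4% of all 32851 windows. GGGCGG was held by 22 of 35 genes and was in 35.7% of all windows. TATAAA was held by 5 of 35 genes and was in 13.6% of all windows. TGANTCA was held by 1 gene, Col6a1, and was in 7.81% of all windows. AGAACA was held by 2 genes, Col9a1 and Col20a1, and was in 19% of all windows. Of the 14 genes called lower that had a window, 5 held CCAAT, 9 held GGGCGG and 0 held AGAACA. These are matches of letters, and no motif was in all 14 of these genes.

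Genes that act on collagen are given by list, and their counts stand against 13.1% of all genes called lower and 11.2% called higher. Of 21 genes for modification, folding and export of collagen, all were tested, 5 were called lower and 0 higher, and their median log2 fold change was -0.47. Serpinh1, the collagen chaperone HSP47, had a log2 fold change of -2.30. Colgalt2, a galactosyltransferase of hydroxylysine, had one of -2.04, but was above background on 1 of the 3 AR113Q arrays, so the size of its difference is uncertain. Of 13 genes for propeptide removal and crosslinking, 11 were tested, 6 were lower and 1 was higher, with a median of -1.15. Pcolce, which enhances cleavage of the procollagen C-propeptide, had -3.03 and Loxl3, a lysyl oxidase homologue, -1.72. In the opposite direction, Lox, the lysyl oxidase that crosslinks fibrils, rose by 2.97 on the log2 scale.

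Of 10 collagen receptors, 8 were tested, 4 were lower and 0 higher, with a median of -0.94. Itga11, the integrin chain by which fibroblasts bind type I collagen, had -2.59 and Lair1, an inhibitory leukocyte receptor for collagen, -1.53, although the latter was above background on only 1 AR113Q array. Of 9 collagen-degrading enzymes, 7 were tested, with 1 lower (Fap, -2.13, a fibroblast protease) and 1 higher (Mmp14, 1.32, a membrane-bound collagenase), and a median of -0.10. Of 15 TGF-beta genes, 14 were tested, 3 were lower and 1 was higher, with a median of -0.04. Smad3, which carries the TGF-beta signal to the nucleus, had -1.44, the ligand Tgfb2 had -1.27, and the receptor Tgfbr1 had 1.11.

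**Figure D5:**
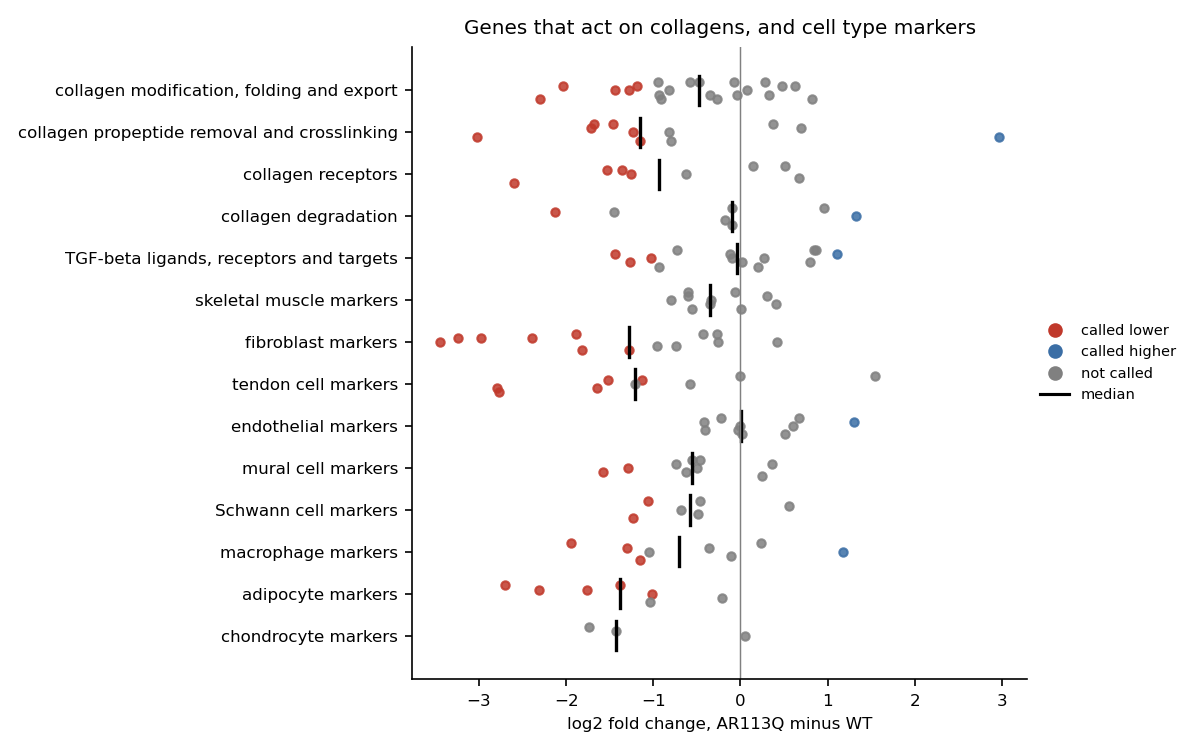
Log2 fold change, AR113Q minus WT (x axis), of each tested gene in 14 lists of genes that act on collagens or mark cell types (y axis). Red points were called lower, blue higher and grey not called, and black bars are list medians. Crosslinking, fibroblast, tendon, adipocyte and chondrocyte lists have medians below -1 (the last over 3 genes, none called), and Lox lies alone at 2.97.

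Markers of the cell types that a quadriceps sample can hold are read against the same shares, 13.1% of all genes called lower and 11.2% called higher, and no test of a list against them was made. Of 14 fibroblast markers, 13 were tested, all above background on all 7 arrays, and 7 were called lower and 0 higher, with a median of -1.27. Thy1 had a log2 fold change of -3.44 and Clec3b one of -3.24, whereas Dcn had 0.41 and Pdgfra -0.27, neither called. Genes of these marker lists named without a call were chosen after their values were seen. The log2 of the summed fibroblast marker signal was 16.68 to 17.00 in WT and 16.45 to 17.00 in AR113Q, which overlap. Dcn had a mean log2 signal of 15.93 in WT and 16.34 in AR113Q, and so made up much of this sum. The list's median difference from the WT mean did not overlap, with -0.14 to 0.13 in WT and -1.85 to -1.14 in AR113Q. Of 9 tendon cell markers, all were tested and 5 were lower, with a median of -1.21, led by Tnmd (-2.79) and Kera (-2.77), whereas Mkx had -0.0048 and Angptl7 had 1.54, neither called. The log2 summed signal of the tendon markers was 13.11 to 14.28 in WT and 11.81 to 13.47 in AR113Q, which overlap. WT 3 was the highest, with the other WT arrays at 13.11 to 13.29. AR113Q 1 was the lowest, with AR113Q 2 at 13.47 and AR113Q 3 at 13.28. The part of fibroblast or tendon content in the collagen values was not tested.

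Among other cells, adipocyte markers had 5 of 7 lower and a median of -1.39, led by Adipoq (-2.71) and Retn (-2.31). The log2 of their summed signal was 15.90 to 16.66 in WT and 15.24 to 15.51 in AR113Q, without overlap. Macrophage markers had 3 of 8 lower (Adgre1 -1.94 and Lyz2 -1.30 were the largest) and 1 higher (Cd163, 1.18), with a log2 summed signal of 13.01 to 13.78 in WT and 12.54 to 13.00 in AR113Q. Schwann cell markers had 2 of 6 lower, S100b (-1.23) and Egr2 (-1.06), with 10.31 to 11.14 in WT and 9.79 to 10.40 in AR113Q, which overlap. Mbp, of the same list, had a log2 fold change of 0.56 (limma, adjusted p = 0.0219), under the threshold of size, and all its AR113Q arrays were above all WT arrays. Mural cell markers had 2 of 9 lower, Kcnj8 (-1.58) and Cspg4 (-1.29), whereas Pdgfrb had 0.37 and Myh11 had 0.25, neither called. The log2 summed signal of this list was 14.15 to 14.25 in WT and 13.49 to 13.98 in AR113Q. At an unadjusted p under 0.05 (limma), 6 mural markers were lower and 0 higher, against 26.6% and 24.9% of all genes.

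Endothelial markers had 0 of 10 lower and 1 higher (Cldn5, 1.30), with a median of 0.01. Their log2 summed signal was 14.11 to 14.24 in WT and 14.26 to 14.61 in AR113Q, without overlap. The log2 summed signal of the muscle markers was 19.90 to 20.04 in WT and 19.36 to 19.92 in AR113Q, with a median log2 fold change of -0.34. At an unadjusted p under 0.05 (limma), at which 26.6% of all genes were lower and 24.9% higher, 3 muscle markers were lower and 0 higher, 0 endothelial markers were lower and 4 higher, and 9 fibroblast markers were lower and 1 higher. Of 7 chondrocyte markers, 3 were tested and 0 were called, with a median of -1.42, and Acan, Matn1, Matn3 and Hapln1 did not pass the filter. The median difference of these 3 from the WT mean was -3.67 in AR113Q 1, -0.56 in AR113Q 2 and -0.04 in AR113Q 3. The log2 of their summed signal was 9.74 to 11.65 in WT and 6.91, 9.81 and 10.34 in AR113Q, which overlap. The part of these cell types in the collagen values was not tested.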

How the data were processed

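The authors scanned the arrays and extracted spots with Agilent Feature Extraction 10.7.3.1. The deposited files give each spot's intensity after background subtraction and detrending, not normalized between arrays, and mm9 probe positions. A table of log2 values that the authors deposited, quantile normalized by the methods, served as an alternative.

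Here log2 intensities of 43020 spots per array, without control and outlier spots, were quantile normalized and averaged per probe. Of 39429 probes, 20987 passed the scanner's background flag on 3 or more of 7 arrays. The kept probe with the highest mean stood for a gene. Genotypes were compared with limma 3.58.1 (lmFit and eBayes) in R 4.3.3, a step tested on simulated data. The number of arrays limits the precision, and p-values measure the spread between mice. Of the 66 collagen probes, 64 matched RefSeq (GRCm38.p6) by accession. Collagen genes and lists were chosen with earlier results of these data known. Every tested collagen gene is named. Values on every array are given for the 3 largest differences of each class and for chosen chains, and from each list up to 2 called genes per direction. The alternatives were another scaling, background correction, filter, probe rule, variance model, slide or replicate block, and each array left out. One gene of a marker list is not reported here.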

Additional observations from a re-analysis of the deposited data

Results flagged for a closer look

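One collagen value stood apart from its group. Col7a1 had a log2 signal of 9.98 on WT 3, whereas the other WT arrays lay between 10.75 and 10.88, so that its gap to the nearest array was 0.854 of the whole WT range, above Dixon's critical value for 4 samples. The test was made in 35 groups of 4 arrays (30 genes and 5 medians of classes), of which chance flags about 1 in 20. Without WT 3, the log2 fold change of Col7a1 was -0.07 in place of 0.13, and neither was called.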

How the results depend on the processing

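Of 30 collagen genes tested, 17 to 19 were called lower under other scaling, with probes averaged, with outlier spots kept, with an intensity trend and with slide as a random block, against 12.8% to 14.5% of all genes. The number was 17 of 44 with no filter (6.82% of all genes), 16 of them shared with the 18 as reported, 12 of 18 with probes above background on all 7 arrays (11.5%) and 16 to 20 with each array left out (11.6% to 14%), and 0 were called higher in any of them. It was 10 with normexp, 10 in the authors' values and 10 on the mean spot intensity without background subtraction, an alternative chosen after seeing the data, in which 6.21% of all genes were called lower. In each of these 3, the same 10 genes passed. It was 0 with slide as a fixed effect, a fit in which slide 2 alone estimates the difference and no gene of all tested passed, and 18 collagen genes were lower at an unadjusted p of at most 0.05, as were 19.8% of all genes. Of the 18 genes, 10 were called under all 19 alternatives but slide as a fixed effect.

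The replicate numbers of the labels do not pair the mice (deviations of arrays with the same number correlated at 0.037, -0.022 and 0.156), and with the replicate block 15 genes were called lower (12.9% of all genes), without Col4a5 (-1.36, adjusted p = 0.0531), Col4a6 (-1.12, adjusted p = 0.0520) and Col6a6 (-1.77, adjusted p = 0.0643).

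Medians of the classes kept their sign. The set of genes in a class differed between some settings, so a median can move without a change in any gene's value. Microfibrillar medians were over 4 genes as reported, 3 in the authors' values, 6 with no filter and 3 with all 7 arrays above background. Fibrillar medians were over 8, 8, 11 and 5 genes in the same order. For basement membrane collagens the median was -0.51 with 75th percentile scaling, -0.11 with normexp, -0.06 in the authors' values, -0.44 with all 7 arrays above background, -0.45 with probes averaged and -0.11 on the mean spot intensity. For fibrillar collagens it was -2.04 with normexp, -1.90 in the authors' values, -2.39 with no filter, -3.27 with all 7 arrays above background and -2.11 on the mean spot intensity. For FACIT collagens it was -0.45 with normexp and -1.59 with slide fixed. For microfibrillar collagens it was -3.04 with normexp, -2.86 in the authors' values, -2.58 with no filter, -4.35 with all 7 arrays above background, -4.18 with slide fixed and -3.14 on the mean spot intensity.

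The sign changed for Col4a6 (0.11 with 75th percentile scaling, 0.065 with normexp, 0.035 in the authors' values, 0.093 on the mean spot intensity), Col23a1 (-0.039 with 75th percentile scaling, -0.056 with slide fixed), Col9a2 (0.030 with normexp, 0.021 on the mean spot intensity), Col20a1 (0.039 with probes averaged) and, with slide fixed, Col4a2 (-0.13), Col4a1 (-0.22) and Col7a1 (-0.20). With each array left out, values ran from -0.28 to 0.094 for Col20a1, -0.71 to 0.020 for Col9a2, -0.074 to 0.22 for Col7a1, -0.012 to 0.53 for Col4a1 and -0.085 to 0.33 for Col4a2. No value of turned sign was called. The cause was not tested. Dim signal limits Col5a2, Col15a1, Col6a6, Col4a6, Col24a1, Col26a1 and the main probe of Col14a1, none of which was above background on all 7 arrays.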
